A study of Mus musculus with 8 samples.

Results

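The regions described here are 212 dense clusters of PPARb binding sites in the mouse genome, out of 19072 groups into which the PPARb peaks of differentiated oligodendrocytes fell. They were selected on measured peak positions: PPARb peaks on chromosomes 1 to 19, X and Y were joined when neighbouring centres lay within a fixed distance of about 13 kb, stated exactly with the processing, and groups of 5 or more peaks were kept. Their number and spacing are therefore no finding. The clusters held 1213 of 26404 PPARb peaks, a share of 4.59%, on 6.06 Mb, or 0.223% of these chromosomes.

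PPARb, encoded by Ppard, is a nuclear receptor that senses fatty acids and their derivatives and binds DNA as a partner of retinoid X receptors, classically at a direct repeat of the hexamer AGGTCA with 1 base between the copies. Qki-5 is the nuclear isoform of Quaking, an RNA-binding protein needed for myelination, whose recognition element in RNA contains ACUAAC. Regions in which many binding sites of a factor lie close together are often found around genes that set the identity or the responses of a cell, and clustering of sites by distance is a common way to list them.

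Chromatin immunoprecipitation with sequencing was done on differentiated oligodendrocytes and on oligodendrocytes freshly isolated from mouse brain. The differentiated cells came from neural stem cells of an FvB/C57BL6 hybrid strain at passage 7. All of them, input included, carried ectopic PPARb, named HA-PPAR in the labels, and were grown with IGF-1 and the thyroid hormone T3. They gave 1 library each for PPARb, HA, Qki-5, RNA polymerase II (Pol II) and input. By the label HA-PPAR, HA tags the introduced receptor, so the HA library profiles PPARb again and not another protein. The isolated cells came from C57BL6 mice at passage 0, were taken with O4 magnetic beads, and gave 1 library each for Qki-5, PPARb and input. No untagged differentiated cells and no PPARb-free cells were among the groups, and HA was not profiled in isolated cells. No markers of cell identity can be checked in peak lists. With 1 library per group no value has a replicate error. All intervals are 95% exact intervals, cover counting error only, and treat peaks as independent, which neighbouring peaks of a cluster are not.

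Library depth ran from 12624236 tags (HA) to 24880851 (Pol II), with 22471011 for PPARb. The isolated-cell PPARb list had 1391 peaks, with 0.12% of its tags in peaks, against 13267 to 30175 peaks in the 4 differentiated-cell lists and 8375 for isolated-cell Qki-5. A site without a peak in that list is not shown to lack the receptor. Peak height is the authors' normalized tag count of a 200 bp peak, per 10000000 tags. A PPARb peak of the median height, 9.79, held 22 tags, with an interval of 6.14 to 14.8, so most single heights within a cluster could not be ranked.

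Of the 1213 in-cluster peaks, 185 touched the 250 bases before an annotated start of a protein-coding gene, in 215 windows of 189 genes. These are RefSeq sequences of GRCm38.p6, the same assembly as mm10. Printed here are 6 of them, at in-cluster peaks of genes named below. A window is called under a peak if it shares at least 1 base with it. Windows can thus reach beyond the peak, and a marked match need not lie within it. Sequences run 5′ to 3′ on the gene's strand. Capitals mark matches, on either strand, to the nuclear receptor hexamer AGGTCA, to the DNA form of the Quaking element, which reads ACTAAC, to the ETS-type element CCGGAAG, to the GC box written GGGCGG, to the CCAAT box, and to the direct repeat, taken as a pair of AGGTCA hexamers 1 base apart with up to 2 mismatches in 12 bases. Matches of different motifs may overlap.
Klf13: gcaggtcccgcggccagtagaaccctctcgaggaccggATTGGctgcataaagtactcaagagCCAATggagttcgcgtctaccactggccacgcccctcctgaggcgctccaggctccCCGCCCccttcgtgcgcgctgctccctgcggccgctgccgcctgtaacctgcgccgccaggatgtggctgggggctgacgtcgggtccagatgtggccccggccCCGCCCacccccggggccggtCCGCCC
Dohh: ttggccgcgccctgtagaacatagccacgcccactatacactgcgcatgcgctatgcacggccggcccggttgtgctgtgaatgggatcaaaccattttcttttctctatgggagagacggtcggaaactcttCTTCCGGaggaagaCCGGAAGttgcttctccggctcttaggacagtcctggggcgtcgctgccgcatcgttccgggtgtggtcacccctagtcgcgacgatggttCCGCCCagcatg
H4c4: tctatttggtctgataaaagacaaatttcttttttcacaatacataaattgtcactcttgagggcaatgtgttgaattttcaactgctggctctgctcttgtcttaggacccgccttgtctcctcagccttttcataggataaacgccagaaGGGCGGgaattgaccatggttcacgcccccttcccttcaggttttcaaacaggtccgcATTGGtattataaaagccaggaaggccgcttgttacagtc
Acot1: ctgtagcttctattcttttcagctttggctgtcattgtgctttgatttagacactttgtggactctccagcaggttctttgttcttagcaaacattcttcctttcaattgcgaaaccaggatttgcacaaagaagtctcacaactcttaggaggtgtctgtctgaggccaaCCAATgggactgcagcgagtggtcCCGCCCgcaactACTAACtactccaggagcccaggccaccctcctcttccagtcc
Nr1d1: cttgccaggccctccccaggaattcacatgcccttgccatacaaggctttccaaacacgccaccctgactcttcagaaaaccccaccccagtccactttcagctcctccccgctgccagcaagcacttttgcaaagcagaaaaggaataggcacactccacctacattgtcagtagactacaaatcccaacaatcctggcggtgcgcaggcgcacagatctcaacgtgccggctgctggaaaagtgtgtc
Dda1: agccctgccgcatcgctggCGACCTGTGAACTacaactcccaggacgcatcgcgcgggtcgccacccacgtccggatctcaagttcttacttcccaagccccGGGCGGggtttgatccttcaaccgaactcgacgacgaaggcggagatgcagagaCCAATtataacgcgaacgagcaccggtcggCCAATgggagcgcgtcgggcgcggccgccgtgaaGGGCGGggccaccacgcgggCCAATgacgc

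Their positions are chr7:63938916-63939165 on the minus strand (Klf13), chr10:81384184-81384433 on the plus strand (Dohh), chr13:23581318-23581567 on the plus strand (H4c4), chr12:84009252-84009501 on the plus strand (Acot1), chr11:98775378-98775627 on the minus strand (Nr1d1) and chr8:71468944-71469193 on the plus strand (Dda1). The PPARb peaks there had heights of 18.2, 15.1, 13.8, 17.4, 16.9 and 13.8 in the same order. Klf13 carried 3 GC boxes and 2 CCAAT boxes, Dohh 2 ETS-type elements, and Nr1d1 none of the motifs. The Dda1 window held the direct repeat, which was present in 3 of the 215 windows under in-cluster peaks (1.4%, 0.289 to 4.02). Under PPARb peaks outside clusters it was in 2.03% (1.71 to 2.39) of windows, and among all 21263 windows of that length in 2.8%.

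Across the windows, promoters under in-cluster peaks held the motifs about as often as promoters under other PPARb peaks. AGGTCA stood in 8.37% (5.04 to 12.9) of the 215 windows, in 8.44% of 6751 windows under PPARb peaks outside clusters and in 12.8% of all windows. The GC box stood in 71.2%, 67.7% and 42.6%, and the ETS-type element in 18.1%, 19% and 8.98%, in that order. The Quaking element stood in 3.26%, 3.98% and 4.78%. The median GC content of the windows was 62.0%, 62.8% and 55.6%. The 14297 windows without a PPARb peak held the receptor hexamer in 14.9%, the GC box in 30.4% and the ETS-type element in 4.11%, while the intervals of clustered and other peaks overlapped for all 3. The median GC content without a peak was 51.6%, and its part in these shares was not tested.

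Most clusters were small. There were 127 clusters of 5 peaks, 53 of 6, 13 of 7, 12 of 8, and 7 larger ones, up to 13 peaks. Just below the minimum stood 299 groups of 4 peaks, with 1196 peaks in all. Spans ran from 8.23 to 74.3 kb, with a median of 26.8 kb, and density from 1.2 to 6.08 PPARb peaks per 10 kb, with a median of 2.04. The median gap between neighbouring peaks of a cluster was 6.05 kb in the median cluster. The authors' peak caller kept a peak only if it stood 4-fold above its surrounding 10000 bp, and this filter removed 2202 of 34661 putative PPARb peaks, or 6.35%. The fold over the local background was lower in clusters, with a median of 6.71 against 8.13 elsewhere, so close groups stood nearer to this limit. Whether removed peaks would have made more or larger clusters was not tested.

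By count, clusters were spread unevenly over the chromosomes. Chromosome 11, one of the most gene-dense of the mouse, had 31 clusters, which held 9.49% (8.23 to 10.9) of its 1982 PPARb peaks. Chromosome 15 had 19 clusters with 8.71% (7.13 to 10.5) of 1137 peaks, chromosome 8 had 16 with 6.84% (5.56 to 8.3), and chromosome 19 had 10 with 6.81% (5.2 to 8.73). At the other end, chromosomes 3, 16 and 14 had 2.0%, 2.3% and 2.36%, and X and Y had no cluster among 398 and 11 peaks. Gene density was 13.2 protein-coding genes per Mb on chromosome 11 but 7.47 on chromosome 15 and 14 on chromosome 7, where the share was 5.18%. The mean input tags under a PPARb peak lay between 1.98 and 2.13 on the autosomes and at 1.31 on X. PPARb peaks per Mb, which bear on any grouping by distance, were highest on chromosomes 11 (16.3) and 19 (13.7). They were 10.9 on chromosome 15, 10.6 on chromosome 8 and 2.33 on X, but 12.2 on chromosome 9, where the share was 3.09%. The part of peak density in these shares was not tested. HA peaks grouped by the same rule showed chromosomes 11 (14%), 15 (10.1%), 19 (9.96%) and 8 (9.88%) highest as well.

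**Figure D1:**
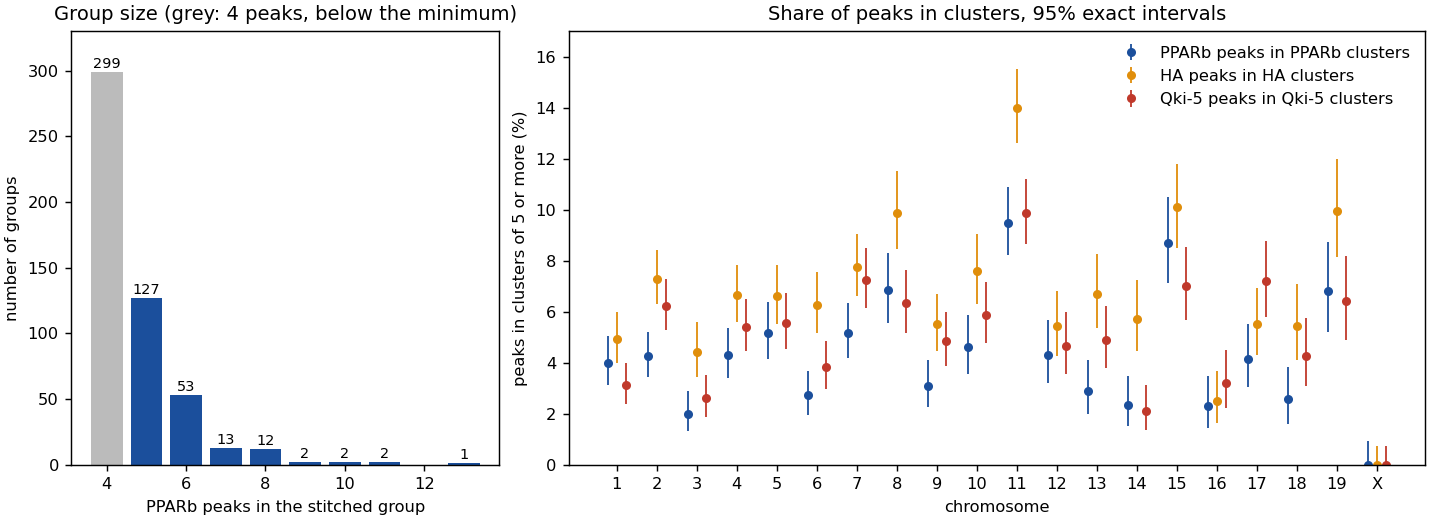
Left, the number of stitched PPARb groups by number of peaks, from the 299 groups of 4 that missed the minimum (grey) to the single cluster of 13. Right, the percentage of PPARb, HA and Qki-5 peaks that lay in clusters of their own list on each chromosome except Y, with 95% exact intervals; chromosome 11 stands highest for all 3 lists and X is at 0.

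The other antibodies of the differentiated cells mapped to the same clusters. Each of the 212 clusters held at least 1 Qki-5 peak and at least 2 HA peaks, and 1018 Qki-5 and 1122 HA peaks lay inside the spans in all. Pol II had 484 peaks inside, in 192 clusters (90.6%, 85.8 to 94.1). Groups of 4 were close to this, with a Qki-5 peak inside 99.3%, an HA peak inside 99.7% and a Pol II peak inside 84.6% (80.0 to 88.5) of them. Most of the peaks inside lay on a PPARb peak, and 147 Qki-5, 169 HA and 83 Pol II peaks did not. Clusters of HA peaks, made by the same rule, numbered 353, and 148 of the 212 PPARb clusters (69.8%, 63.1 to 75.9) overlapped one, against 2.42% of all stitched groups, single peaks included. Qki-5 clusters numbered 278, and 116 PPARb clusters (54.7%, 47.8 to 61.5) overlapped one, against 1.92% of all groups. Pol II formed 16 clusters, and 9 PPARb clusters (4.25%, 1.96 to 7.91) overlapped one, against 0.115%. These backgrounds are mostly single peaks. Just outside the minimum, of the 299 groups of 4, 26.8% (21.8 to 32.2) overlapped an HA cluster, against 57.5% (48.4 to 66.2) of the 127 clusters of exactly 5. An HA cluster needs 5 peaks as well, so a group of 4 PPARb peaks reaches one less often by construction, and nothing is read from these shares. By peak, groups of 4 and clusters of 5 had HA at 74.5% and 76.5%, Qki-5 at 74.0% and 72.8%, and Pol II at 36.0% and 34.0%.

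Peak by peak, in-cluster sites overlapped HA in 953 of 1213 cases and Qki-5 in 871. The HA share was 78.6% (76.1 to 80.8), against 73.5% of all PPARb peaks. The Qki-5 share was 71.8% (69.2 to 74.3), against 74.4% of all. The Pol II share was 33.1% (30.4 to 35.8), against 36.5%. Overlap here means at least 1 shared base. So the HA share was above and the Qki-5 and Pol II shares slightly below those of the whole list, with no test of these differences. Sites with Qki-5, HA and Pol II together made up 335 of 1213, or 27.6% (25.1 to 30.2), against 29.7% of all, and 170 clusters had at least 1 such site. A peak in any of the 5 other lists was found at 1077 in-cluster sites, or 88.8% (86.9 to 90.5), against 88.2% of all.

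Sites with a peak of HA or of Qki-5, but not of both, were counted separately. HA without Qki-5 was found at 187 in-cluster sites, or 15.4% (13.4 to 17.6), against 12.1% of all PPARb peaks. Qki-5 without HA was found at 105, or 8.66% (7.13 to 10.4), against 13% of all. With group size the HA share went from 73.3% for single peaks through 74.5% for groups of 4 to 77.9% in clusters of 5 or 6 and 81.2% (75.9 to 85.7) in larger ones, while the Qki-5 share went from 76.0% through 74.0% and 72.1% to 70.8% (64.8 to 76.2). Qki-5 without HA was at 13.7% (13.1 to 14.3) of single peaks and at 5.38% (2.97 to 8.87) of peaks in clusters of 7 or more. In groups of 2, 3 and 4 the HA and Qki-5 shares were close, at 72.9% and 72.7%, 73.3% and 72.3%, and 74.5% and 74.0%. The share of Qki-5 was thus the higher one for single peaks alone, and with 8-fold over input required in every list HA was the higher one outside clusters too, by 4.27 percentage points. These shares are side-by-side descriptions with no test of the trend. The HA library was the shallowest of the 4, and its list had 30037 peaks against 30175 for Qki-5.

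**Figure D2:**
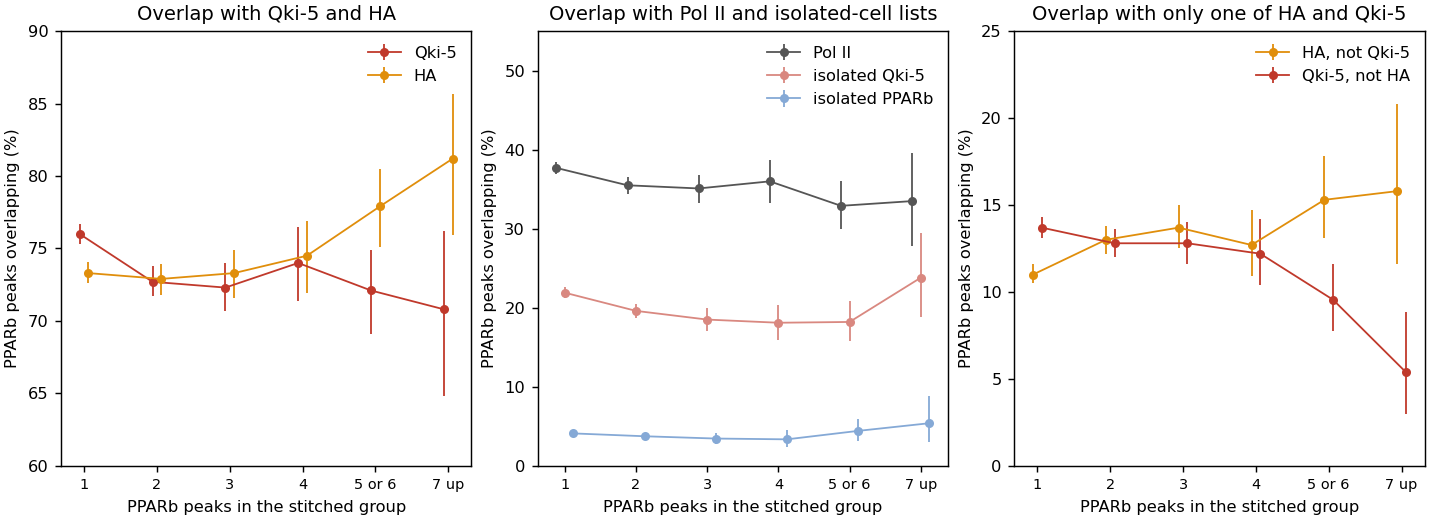
Percentage of PPARb peaks that overlapped a peak of each other list, by the number of PPARb peaks in the stitched group, with 95% exact intervals; the left axis starts at 60%. HA goes from 73.3% to 81.2% and Qki-5 from 76.0% to 70.8%, and the 2 kinds of unshared site part at groups of 5 or more.

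Heights were similar inside and outside. The median PPARb height was 10.2 (quartiles 8.01 and 13.8) in clusters and 9.79 (7.12 and 12.9) elsewhere. HA peaks on in-cluster sites had a median height of 17.4 against 15.8 elsewhere, Qki-5 13.3 against 12.7, and Pol II 8.84 in both. The mean number of input tags was 2.11 in clusters and 2.05 outside. Because taller PPARb peaks overlap other lists more often, shares were also read within quintiles of PPARb height. In the middle quintile, from 8.46 to 10.7, Qki-5 lay at 70.8% (64.9 to 76.2) of in-cluster and 79.9% (78.7 to 81.0) of other peaks, and HA at 81.3% (76.1 to 85.8) and 79.0% (77.8 to 80.1). In the top quintile Qki-5 lay at 90.2% (86.3 to 93.3) and 92.5% (91.7 to 93.2), HA at 93.1% (89.7 to 95.7) and 92.0% (91.2 to 92.7), and Pol II at 51.1% (45.4 to 56.9) and 62.3% (60.9 to 63.6). Qki-5 was thus below its share outside clusters in all 5 quintiles, by the most in the lower 3, and HA slightly above its own in all 5.

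Clusters were mostly away from gene ends. A gene end, start or stop, lay within 1 kb of 310 in-cluster peaks, or 25.6% (23.1 to 28.1), against 33.5% of all PPARb peaks. The body of a protein-coding gene held 795, or 65.5% (62.8 to 68.2), against 59.0% of all. In 41 clusters at least as many peaks lay at a gene end as away from one, and these boundary-rich clusters overlapped a median of 4.0 genes. The other 171 were distal-rich and overlapped a median of 1.0 gene. No peak at a gene end was found in 79 clusters, 19 overlapped no protein-coding gene, and 56 had every peak inside 1 gene. Pol II lay at 44.9% (38.6 to 51.4) of the peaks of boundary-rich and 30.1% (27.2 to 33.1) of those of distal-rich clusters, and isolated-cell Qki-5 at 37.1% (31.1 to 43.5) and 14.9% (12.7 to 17.3). HA and Qki-5 hardly differed between the classes, at 78.8% and 78.5%, and 72.2% and 71.7%.

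The comparison with other sites was also read by position. Away from gene ends, HA lay at 78.4% (75.6 to 81.0) of 903 in-cluster peaks and 69.4% (68.7 to 70.1) of 16653 others, while Qki-5 lay at 70.3% (67.2 to 73.3) and 70.7% (70.0 to 71.4) and Pol II at 26.9% (24.0 to 29.9) and 25.7% (25 to 26.4). At gene ends, HA lay at 79.0% (74.1 to 83.4) of 310 and 80.7% (79.9 to 81.5) of 8538, Qki-5 at 76.1% (71.0 to 80.8) and 82.1% (81.2 to 82.9), and Pol II at 51.0% (45.3 to 56.7) and 58.1% (57.0 to 59.2). Within height quintiles the picture away from gene ends was different. Qki-5 was below its share outside clusters in all 5 quintiles there, as at 69.7% (62.8 to 76.1) and 78.8% (77.4 to 80.3) in the middle one. HA was above its share in the lower 3, as at 82.6% (76.5 to 87.6) and 78.0% (76.5 to 79.5) in the middle one, but equal to it in the upper 2, at 86.9% and 86.8% and at 93.1% in both. Pol II was below its share in the upper 3, as at 48.9% (42.3 to 55.6) and 57.3% (55.4 to 59.1) in the top one.

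**Figure D3:**
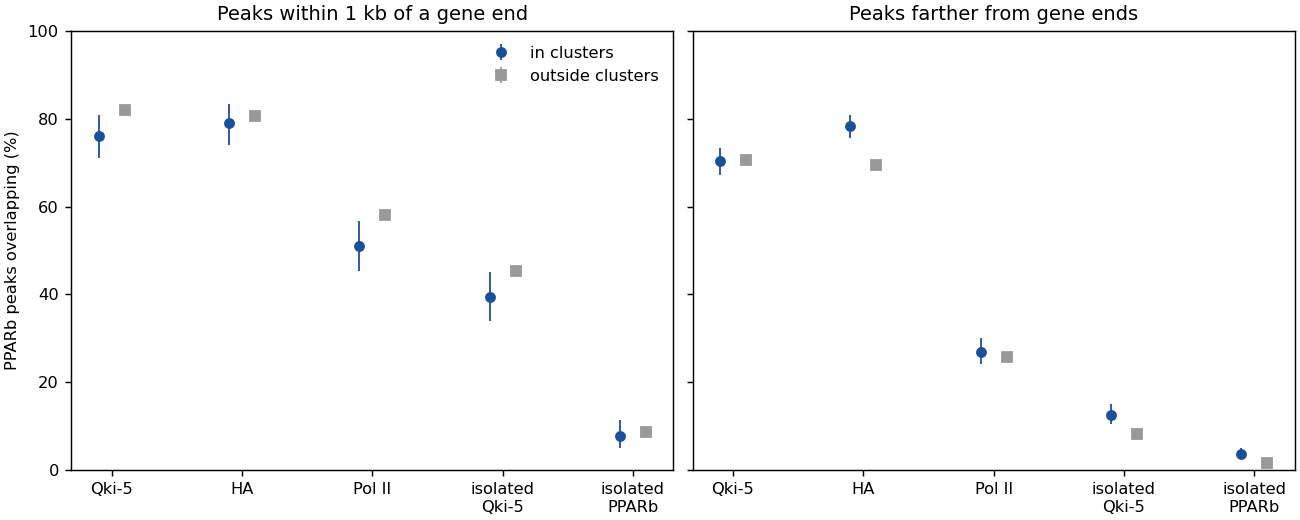
Percentage of PPARb peaks overlapping each other list, for peaks within 1 kb of a gene end (left) and farther away (right), in clusters (blue circles) and outside (grey squares), with 95% exact intervals. Away from gene ends HA stands at 78.4% in clusters and 69.4% outside.

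Isolated oligodendrocytes, which carry no introduced receptor by the labels, shared fewer of these sites. Qki-5 of isolated cells had 284 peaks in 133 clusters (62.7%, 55.8 to 69.3, against 52.2%, 46.3 to 58.0, of groups of 4) and lay on 235 in-cluster PPARb peaks, or 19.4% (17.2 to 21.7), against 20.6% of all. PPARb of isolated cells had 64 peaks in 55 clusters (25.9%, 20.2 to 32.4, against 15.1%, 11.2 to 19.6, of groups of 4) and lay on 56 in-cluster peaks, or 4.62% (3.51 to 5.95), against 3.92% of all. Over all positions both intervals by peak held the background value. Clusters of exactly 5 held an isolated-cell Qki-5 peak in 59.8% (50.8 to 68.4) and an isolated-cell PPARb peak in 21.3% (14.5 to 29.4). Longer spans with more PPARb peaks hold a peak of another list more often by construction, so nothing is read from these shares of clusters. Away from gene ends isolated-cell PPARb lay at 32 of 903 in-cluster peaks, or 3.54% (2.44 to 4.97), and at 1.46% (1.28 to 1.65) of the others, and isolated-cell Qki-5 at 113 of 903 (interval 10.4% to 14.9%) and 8.0% (7.6 to 8.43). In the top quintile of PPARb height, away from gene ends, isolated-cell PPARb lay at 26 of 231 in-cluster peaks, or 11.3% (7.49 to 16.1), and at 4.91% (4.15 to 5.77) of 2852 others. These 26 make up most of the 32 sites, and in quintiles 2 to 4 the shares were 0.549% and 0.485%, 1.03% and 1.09%, and 1.19% and 1.73%, so only the top quintile held more than a few sites. At gene ends both shares were lower in clusters, at 7.74% (5.02 to 11.3) and 8.61% (8.02 to 9.22) for isolated-cell PPARb and 39.4% (33.9 to 45.0) and 45.4% (44.3 to 46.4) for isolated-cell Qki-5. No isolated-cell PPARb cluster existed, and 8 isolated-cell Qki-5 clusters did, of which 4 met a PPARb cluster. Strain, passage, introduced receptor and cell source differ together between the 2 kinds of cell and cannot be told apart.

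The cluster with the most peaks lay inside Cuedc1, which encodes a protein with a ubiquitin-binding CUE domain, at chr11:88113523-88187832. Its 13 PPARb peaks, on 74.3 kb of a 95 kb gene, had heights from 5.79 to 18.2 with a median of 12, and none was at a gene end. HA lay on 11 of them, at up to 38.8, Qki-5 on 11, at up to 18.8, and Pol II on 6, at up to 12.9. Isolated-cell Qki-5 lay on 2 and isolated-cell PPARb on none. The span met clusters of HA, of Qki-5 and of Pol II peaks. Other long runs inside a gene included the 9 peaks in Prex1, a Rac exchange factor, the 8 in Synj2, a lipid phosphatase, the 7 in the chromatin remodeller Chd9, the 7 in Lrig1, a restraint on growth factor receptors, and the 6 each in Fgfr1, a fibroblast growth factor receptor, and Tgfb2, a secreted TGF-beta.

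In Prex1 (chr2:166650522-166692431) the 9 peaks ranged from 7.12 to 16.0, and 7 carried Qki-5 and HA alike, while 2, of heights 13.8 and 7.12, carried no other list. Over the 56 clusters that lay wholly inside 1 gene, HA was at 76.5% (71.4 to 81.0) of 319 peaks, Qki-5 at 70.8% (65.5 to 75.8) and Pol II at 28.8% (23.9 to 34.1). Isolated-cell Qki-5 was at 9.72% (6.7 to 13.5) of these, below the 19.4% of all in-cluster peaks, of which they are part. However, 4.08% of these 319 peaks lay at a gene end, against 25.6% of all in-cluster peaks. Away from gene ends, isolated-cell Qki-5 lay at 113 of 903 in-cluster peaks, and that interval, 10.4% to 14.9%, overlaps 6.7% to 13.5%. The part of gene ends in the lower share was not tested.

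The next largest clusters lay among several genes. At chr11:69059491-69124460, 11 PPARb peaks covered Borcs6, Tmem107, Vamp2, a vesicle fusion protein, Per1, a core circadian clock gene, and Hes7, a segmentation clock repressor, together with 9 tRNA genes. Peak heights ran from 6.23 to 14.7, and 7 peaks lay at a gene end. Qki-5 was on 8, HA on 8 and Pol II on 4, and isolated-cell Qki-5 was on 6. The peak 53 bp from the end of Per1 had 11.1 for PPARb, 25.4 for Qki-5, 17.4 for HA and 15.6 for isolated-cell Qki-5, with no Pol II peak. The Borcs6 peak was the one with an isolated-cell PPARb peak, of height 9.79, on a PPARb peak of 13.4. A Pol II peak of 39.4, the tallest of that span, lay off every PPARb peak.

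The other cluster of 11 peaks, at chr5:123973770-124043823, covered Hip1r, an adaptor of clathrin and actin, and Vps37b, a subunit of the ESCRT-I sorting complex. It held some of the tallest PPARb peaks of the list. The peak 11463 bp beyond Vps37b had 31.2 (24.3 to 39.4), the 11th highest of 26404, and the peak inside Hip1r had 29.8 (23.1 to 37.9). HA was on all 11 peaks, from 10.3 to 50.7, and Qki-5 on 9. The peak 46 bp inside an end of Hip1r, at 20.9, had the highest HA value of the cluster, 50.7, and a Qki-5 peak of 18.8 close by that shared no base with it. Pol II was on 4 peaks and isolated-cell Qki-5 on 1.

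Several other large clusters also ran across genes. At chr8:71464439-71507859, 10 peaks covered Abhd8, Mrpl34, Dda1, Ano8, Gtpbp3, Plvap and Gm46041, with Pol II on 6 and a tallest PPARb peak of 14.2. At chr9:107533940-107587662, 9 peaks covered the hyaluronidase genes Hyal1, Hyal2 and Hyal3 with Rassf1, Tusc2 and Nprl2, and at chr9:107612697-107667402 10 peaks covered Gnai2, an inhibitory G protein, and Slc38a3, a glutamine transporter. These 2 clusters stood 25 kb apart. The tallest peak there, 26.3 inside Slc38a3, had HA at 35.6 and Qki-5 at 21.6. At chr7:141437495-141476620, 8 peaks lay at Slc25a22, the ribosomal protein gene Rplp2, Pnpla2, a triglyceride lipase, Cd151 and Tspan4, with 7 at a gene end.

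A cluster of 8 peaks lay in the histone gene cluster of chromosome 13 (chr13:23551628-23586076), across 10 replication histone genes. Heights ran from 5.79 to 13.8, and Pol II was on 5 peaks at 16.5 to 54.7, high among Pol II values, whose median on in-cluster sites was 8.84. The peak at H4c4, whose promoter is printed above, had 13.8 for PPARb, 20.5 for Qki-5, 20.6 for HA, 54.7 for Pol II and 11.5 for isolated-cell Qki-5. At H3c6 the values were 17.7 for Qki-5, 20.6 for HA, 22.9 for Pol II and 10.1 for isolated-cell Qki-5. These histone genes have near-identical copies, and the sources used here do not say how reads with several matches were treated.

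Zmiz1, a transcriptional coregulator, held 7 of 8 peaks at chr14:25457591-25496379, with HA on 7, Qki-5 on 4 and Pol II on none. Arid3a, a DNA-binding factor, shared its cluster of 8 with Med16, a Mediator subunit, and there Qki-5 and HA were on 7 and Pol II on 5.

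Isolated-cell PPARb was most frequent in the cluster upstream of Klf13, a Kruppel-like transcription factor. At chr7:63939038-63971361, 5 PPARb peaks had 18.2, 6.68, 15.6, 18.2 and 8.01. They ran from 223 to 32346 bp upstream of the annotated start, by the strand of the promoter printed above. HA was on all 5, with 28.5, 7.92, 21.4, 38.0 and 9.51, and Qki-5 on the nearest 4, with 18.3, 7.19, 17.7 and 26.0. Isolated-cell PPARb was on the middle 3, with 7.07, 7.61 and 13.6, and isolated-cell Qki-5 on the nearest 3, with 14.7, 5.95 and 9.16. It was the single cluster of the 212 in which isolated-cell PPARb reached at least as many sites as it missed. Mnt, a repressor of the MAX network, Nfic, a nuclear factor I gene, and Mrpl48, a mitochondrial ribosomal gene, had clusters with 2 such sites each. At Dohh, in the Nfic cluster, a PPARb peak of 15.1 overlapped all 5 other lists. The heights there were 21.6 for Qki-5, 17.4 for HA, 9.65 for Pol II, 22.4 for isolated-cell Qki-5 and 9.79 for isolated-cell PPARb.

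**Figure D4:**
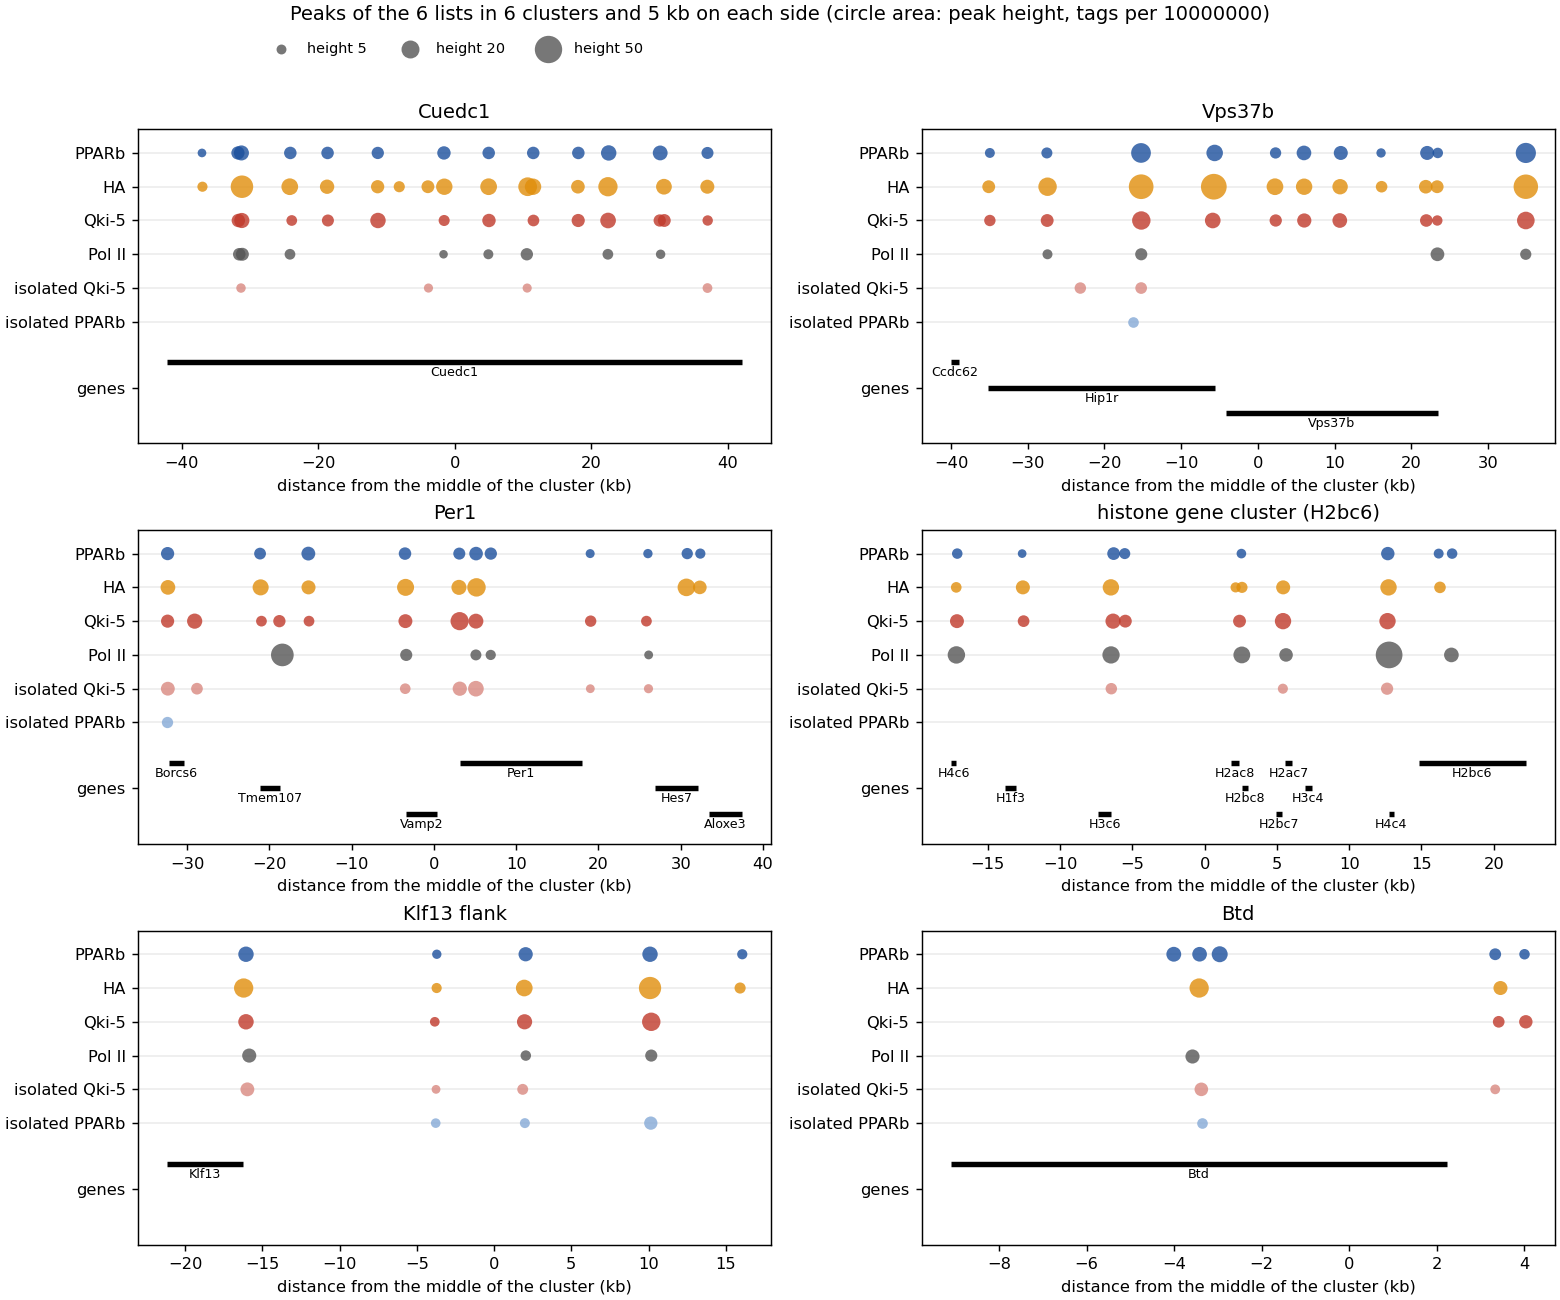
Peaks of the 6 lists in 6 clusters and 5 kb on each side, by distance from the middle of the cluster in kb; circle area is peak height and black bars are protein-coding genes, cut at the panel's edge. HA circles accompany all 11 PPARb peaks of Vps37b and all 5 upstream of Klf13, whereas 1 of the 3 closest PPARb peaks of Btd has an HA circle.

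The tallest in-cluster peaks were not all shared. In Camta1, a calmodulin-binding transcription activator, the peak at chr4:151178910-151179110 had 29.8 (23.1 to 37.9), the 18th highest of the whole list, and overlapped no peak of any other list, although the other 5 peaks of the cluster carried both Qki-5 and HA. It had 4.0 input tags and stood 14.15-fold over input by the authors' value. In the top quintile of height, 7 of 305 in-cluster peaks (2.3%, 0.928 to 4.67) overlapped no other list, against 48 of 4976 others (0.965%). At Tmem88b, a member of the myelin gene list, the peak of 29.4 lay 352 bp from the gene, with Qki-5 at 17.1, HA at 21.4, a Pol II peak and isolated-cell Qki-5 at 7.33. Between Trp53 and Atp1b2 a peak of 29.4 had HA at 34.9 and Qki-5 at 21, and the peak at Atp1b2, of 8.9, coincided with a Pol II peak of 78.8.

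The densest clusters, all short, were shared to different degrees. At Btd, the biotinidase gene, 5 PPARb peaks lay within 8.23 kb, with 2 of them outside the gene, 1092 and 1768 bp from its end. The 3 inside, of heights 16.9, 16.5 and 19.6, lay within about 1 kb. The middle one carried HA at 28.5, Pol II at 15.3, isolated-cell Qki-5 at 14.2 and isolated-cell PPARb at 8.7. The outer 2 shared no base with any peak of another list, but lay within 1 kb of the peaks that the middle one carried. At Tlcd1, Rpl23a and Rab34, a small GTPase gene, all 5 peaks within 11.6 kb carried both Qki-5 and HA. At Slc25a11, Rnf167, Pfn1, profilin, and Eno3, a muscle enolase, 5 peaks lay within 8.31 kb. The cluster at Rara, a retinoic acid receptor that also pairs with retinoid X receptors, had 5 peaks from 7.57 to 10.2, 4 of them inside the gene. None had Qki-5 and 3 had HA. Beside Acot11, a thioesterase gene, 5 peaks lay 31297 to 43582 bp from the gene end, with HA on 3 and Qki-5 on 2. As a share of their peaks, the fewest were shared in the clusters of Ccdc85c, Csdc2, and Tango2. Each had 3 peaks that overlapped no other list, of 7, 6 and 6.

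Few genes of the compiled lists were in clusters, and so were few of all genes. Of 21887 protein-coding genes, 309 (1.41%) had an in-cluster PPARb peak within 1 kb of an end, and 431 (1.97%) overlapped a span. No gene of fatty acid oxidation (of 27), fatty acid synthesis and desaturation (27), the citric acid cycle (24) or the oligodendrocyte lineage transcription factors (15) had such a peak, nor did splicing factors (35). With a background of 1.41%, a count of 0 in lists of this length is near the background. Lists with any such gene had a share above 1.41%, but on few genes, some of them neighbours in 1 cluster. This difference was not tested. Known PPAR targets had 2 of 27, Acot1 and Acot2, neighbouring acyl-CoA thioesterase genes in 1 cluster. The Acot1 promoter peak of 17.4 had Qki-5 at 13.3 and no HA peak, and the Acot2 peak of 8.9 had HA at 23.8, Pol II at 14.9 and no Qki-5 peak. Compact myelin and mature oligodendrocyte genes had 1 of 30 (Tmem88b), cholesterol synthesis 1 of 23 (Tm7sf2), and precursor and stem cell genes 1 of 19 (Nes).

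Replication histones had 6 of 52 by a peak at a gene end and 10 by span, all in the 1 cluster described above. Immediate-early and growth-arrest genes had 3 of 34, from 3 clusters. At Junb the peak of 13.8 had Qki-5 at 11.6, Pol II at 52.7 and no HA peak, at Fosb the peak of 10.2 had HA at 14.3 and no Pol II peak, and Klf13 is given above. Nuclear receptors and coregulators had 2 of 34 by gene end, Nr1d1 and Pprc1, and Rara was met by a span alone. Nr1d1, a clock repressor that binds haem, had 16.9 for PPARb, 19.4 for Qki-5, 26.1 for HA and 9.65 for Pol II, while the Pprc1 peak of 11.6 overlapped none of the lists. Ribosomal proteins had 3 of 58, Rplp2, Rpl29 and Rpl23a. Glycolysis had Aldoa by span alone, of 19.

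Lists of other cell types gave Atp1b2 for astrocytes (1 of 13), Cd68 for microglia (1 of 15) and none for neurons (15), endothelial and mural cells (13) or other tissues (30). Kcnj10, a potassium channel of glia, lay in a further cluster, at chr1:172340820-172376523, with 7 peaks up to 22.7, 5 of them inside the gene. HA was on 7 and Qki-5 on 5. Binding says nothing here of expression, which was not measured.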

How the data were processed

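ChIP-seq was done in 8 libraries, 1 per group, 2 of them inputs, and 6 peak lists were used. The submitters' processing notes name HOMER 4.10.1, SAMtools 1.8, Bowtie 1.2.2, build mm10, Trim Galore 0.4.4, and bcl2fastq 2.19.1.403. Per the file headers, the authors called 200 bp peaks at a false discovery rate of 0.001, 4-fold over input and 4-fold over the local 10000 bp, with centres at least 400 bp apart. Peak height is the deposited normalized tag count, a signal per 10000000 library tags. Fold over input and fold over the surroundings are deposited ratios. Total tags are deposited raw counts in 4 lists.

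Peaks were joined at 12.5 kb and overlaps of at least 1 bp counted with Python 3.11.15, pandas 2.3.3, numpy 2.4.6 and scipy 1.17.1, and the functions were tested on simulated data. Shares have exact Clopper-Pearson intervals and heights exact Poisson intervals. Genes came from a RefSeq table of GRCm38.p6 without strand or exons, and all 565 entries of 21 gene lists matched. Promoter windows were the 250 bases before each start in the RefSeq promoter table, for 17492 genes. Peak sequences, exons and introns were not used here. Named clusters were the 12 with the most peaks, the 5 densest, the 5 with the tallest PPARb peaks, the 5 with the most isolated-cell PPARb peaks, the 5 distal-rich ones with the most peaks and the 3 with the lowest share of their peaks in other lists. From each list up to 6 genes were named by PPARb height. Synj2, Chd9, Lrig1, Fgfr1, Tgfb2 and Kcnj10, the clusters of the closing section and the printed promoters and miRNAs were chosen after their values were seen. The clusters and lists were chosen with earlier results of these data known. Alternatives changed the stitching distance, the minimum, the fold over input, the overlap rule, the list length and the gene-end window. Some clusters and genes that these rules select are not reported here. No significance test was made, since each group had 1 library.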

Additional observations from a re-analysis of the deposited data

How the results depend on the processing

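No paired analysis was possible because each group had 1 library. The number of clusters followed the rule: 0 at 5 kb stitching (0% of peaks, so no other value exists), 739 at 25 kb (18.2% of peaks), 511 with 4 peaks or more (9.12%), 32 with 7 or more (0.985%) and 44 at 8-fold over input in all lists (1.43% of the 16625 PPARb peaks left). At 25 kb, shares of in-cluster peaks were 76.0% for HA, 36.1% for Pol II and 31.5% for gene ends, and shares of clusters 78.5% with an HA cluster, 75.1% with a Qki-5 cluster and 95.5% with Pol II. With 4 or more, 61.8% met a Qki-5 cluster and 19.6% had isolated-cell PPARb. With 7 or more, the shares were 81.2% for HA, 23.8% for isolated-cell Qki-5 and 28.5% for gene ends, with 40.6% of clusters meeting a Qki-5 cluster and 43.8% having isolated-cell PPARb. At 8-fold, Qki-5 was at 64.6%, Pol II at 23.6%, isolated-cell Qki-5 at 8.86% and isolated-cell PPARb at 0.844% of in-cluster peaks. Of the clusters at 8-fold, 36.4% met a Qki-5 cluster, 6.82% had isolated-cell PPARb and 84.1% Pol II. The other lists were shorter there, with 20021 Qki-5, 23430 HA and 374 isolated-cell PPARb peaks. With centres within 1 kb counted as overlap, the shares rose to 81.5% for Qki-5, 87.9% for HA, 43.9% for Pol II and 24.3% for isolated-cell Qki-5. With a 5 kb window, 45.0% lay at gene ends.

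The HA share minus the Qki-5 share, chosen after the data were seen, was 6.76 percentage points in clusters and -1.3 in other peaks. In clusters it was 2.36 at 25 kb, 3.65 with 4 or more, 10.4 with 7 or more and 12.7 at 8-fold. In other peaks it reversed to 4.27 at 8-fold. So only the gap between clustered and other peaks was in the same direction under every alternative that left clusters. The order of HA and Qki-5 outside clusters was not. The cause was not tested. The isolated-cell PPARb list had 0.12% of its tags in peaks, the lowest share of the 6, so its absences carry little weight.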

Other observations

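Some clusters came in neighbouring pairs. There were 10 pairs with at most 100 kb between them. Among them were 2 clusters over Tuba1a and Tuba1b and beyond Tuba1c, genes for alpha-tubulin, 14.1 kb apart on chromosome 15 with 11 PPARb peaks together. Another pair, 35.9 kb apart and also with 11 peaks, lay on chromosome 15 outside any protein-coding gene, nearest to Wnt7b, a secreted signal, and Ppara, the PPAR family member that drives fatty acid oxidation in liver. The part nearer Wnt7b had 6 peaks, the tallest 21.4 at 31770 bp from a gene end, with Qki-5 and HA on 4 each. The part nearer Ppara had 5 peaks, the tallest 16.9 at 64095 bp from the gene, with HA on 4 and Qki-5 on 1. A cluster of 7 peaks on chromosome 13, with its tallest 419406 bp from the nearest gene, Cd83, had HA on 6 and Qki-5 on 5.

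Clusters overlapped 116 lncRNA, 19 snoRNA, 16 miRNA and 10 tRNA genes of the RefSeq table. Of 16 long nuclear and structural RNAs, Snhg1 alone lay in a cluster, with 8 snoRNA genes in the same span. The 16 miRNA hairpins lay in 13 clusters. Mature sequences are printed for the 2 hairpins that share a seed (bases 2 to 8, in capitals) and for the hairpin with the tallest Pol II peak beside it, from the RefSeq miRNA table of GRCm38.p6.
miR-212-3p: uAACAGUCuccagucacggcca
miR-132-3p: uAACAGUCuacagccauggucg
miR-92b-3p: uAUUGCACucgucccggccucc

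Mir212 and Mir132 lay 178 and 459 bp from the centre of the same PPARb peak of 8.46, which had Qki-5 at 11.1, Pol II at 5.63 and no HA peak. Mir92b lay 291 bp from a PPARb peak of 13.8 that had HA at 15.1, Pol II at 24.5 and no Qki-5 peak. Summed PPARb heights over the 212 clusters had a Spearman rho of 0.76 with HA, 0.76 with Qki-5 and 0.4 with Pol II. All the peaks were called against 1 input library. Such sums grow with the number of peaks and the span, which differ between clusters, so nothing is read from these values.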
